A study of Mus musculus with 6 samples.

Results

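The BCL2 family decides whether the mitochondrial outer membrane of a cell is opened and the cell dies by apoptosis. The 10 genes described here are Bcl2a1a, Bcl2a1b, Bcl2a1d, Mcl1, Bcl2, Bcl2l1, Bcl2l11, Bax, Bak1 and Bid. They were taken by name, whatever their values, from the 21959 genes of an RNA-seq table of mouse libraries labelled as tumour neutrophils, in which gene IDs were paired with symbols of GENCODE M21. The labels give 6 libraries of neutrophils from tumours grown from Hepa1-6 (an established hepatoma line of mice) and divide them into 3 GPR35-negative and 3 GPR35-positive libraries, negative and positive for short, by a G protein-coupled receptor. The sources used here give no strain, age, treatment, sort or number of animals per library. No label ties a replicate to an animal of its own, and the p-values then reflect only how far these samples scatter, possibly for technical reasons.

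Pro-survival members of the family (A1, encoded by the Bcl2a1 genes, MCL1, BCL2 and BCL-XL, encoded by Bcl2l1) hold the pore-forming effectors BAX and BAK1 in check. BH3-only proteins, among them BIM, encoded by Bcl2l11, and BID, are the sensors that bind the pro-survival proteins or engage the effectors. Neutrophils are short-lived cells that depend on MCL1, a protein with a fast turnover, and they also express A1, whose genes respond to NF-kappaB and to myeloid growth factors.

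The libraries held 15742743 to 18314104 reads assigned to genes, recovered from the step that 1 read makes in FPKM, a unit of fragments scaled by gene length and library size. Gpr35 itself ranged from 1.30 to 2.03 FPKM in the negative group and from 18.2 to 21.9 FPKM in the positive group. Summed hepatocyte and hepatoma markers exceeded summed neutrophil markers in all 6 libraries, against the labelled cell type. The summed level of 20 hepatocyte and hepatoma markers was 25734 to 27188 FPKM in negative and 17214 to 17649 FPKM in positive libraries, and that of 20 mature neutrophil markers 926 to 1187 and 10187 to 11146 FPKM. In such bulk samples, fewer cells of a type and less RNA per cell cannot be told apart. Of 10060 genes tested with limma-trend on log2(FPKM + 1), 23.3% were higher and 45.5% lower in positive libraries at an adjusted p under 0.05. Over all genes tested, log2 fold changes had a median of −0.19. Median-of-ratios scaling moved it to −0.07 and the share of calls that were higher from 33.9% to 47.6%.

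The 3 Bcl2a1 genes are near-identical copies in a cluster on mouse chromosome 9 (GRCm38). How far a read can be given to 1 of them limits every value below that includes these genes. Bcl2a1d (ENSMUSG00000099974) lies at chr9:88723285-88731914 on the reverse strand. Bcl2a1a (ENSMUSG00000102037) lies at chr9:88956900-88962419 and Bcl2a1b (ENSMUSG00000089929) at chr9:89199209-89207827, both on the forward strand. Each has 2 exons and a coding sequence of 519 bases, of which 12 positions differ among the copies. The first 120 coding bases of the GENCODE transcripts are shown because they hold 7 of these 12 positions, which are in capitals.
Bcl2a1a: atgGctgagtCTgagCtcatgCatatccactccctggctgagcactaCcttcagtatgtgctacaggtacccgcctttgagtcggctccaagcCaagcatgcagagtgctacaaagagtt
Bcl2a1b: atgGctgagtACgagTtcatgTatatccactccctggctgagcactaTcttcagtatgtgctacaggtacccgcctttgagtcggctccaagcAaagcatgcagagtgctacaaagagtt
Bcl2a1d: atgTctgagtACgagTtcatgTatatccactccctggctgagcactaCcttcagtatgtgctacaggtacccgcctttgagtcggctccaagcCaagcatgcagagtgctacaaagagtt
The 217 coding bases from position 95 to 311 counted from the start codon, are the same in all 3 copies, and the other 5 differing positions lie between 312 and 490. Coding identity was 98.7% between Bcl2a1a and Bcl2a1d, 98.8% between Bcl2a1b and Bcl2a1d and 97.9% between Bcl2a1a and Bcl2a1b.

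Stretches of 50, 100 and 150 bases were compared with all GENCODE M21 transcripts, since no source used here gives the read length. Of the 100-base stretches of Bcl2a1a, 56.5% were found in no other gene, against 68.9% for Bcl2a1b and 45.3% for Bcl2a1d. With 50 bases these shares were 31.0%, 42.4% and 20.5%, and with 150 bases 71.8%, 85.8% and 69.7%. Bcl2a1b has a further limit that the other copies do not have. The annotated gene Gm29094 lies over it on the same strand and shares 401 of its 817 exon bases (49.1%), and the table lists Gm29094 at 0 in all 6 libraries. When Gm29094 is counted as another gene, 43.2% of the 100-base stretches of Bcl2a1b remain particular to it. The sources used here do not say whether the counting left out reads shared between genes, and its part in the low level of Bcl2a1b was not tested. Bcl2a1c, an intronless copy elsewhere on chromosome 9, was listed at 0 in all 6 libraries.

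**Figure D1:**
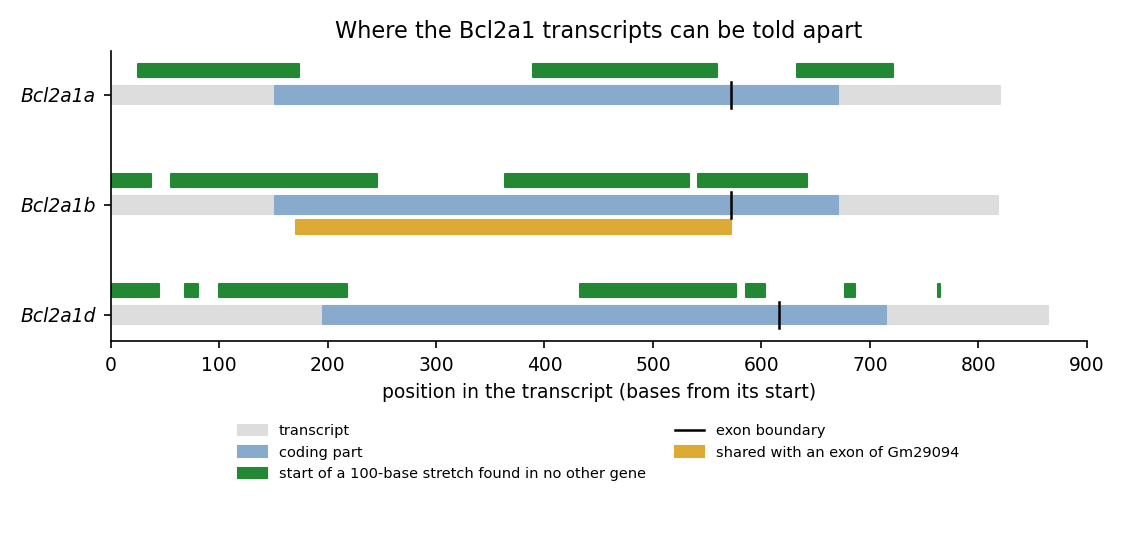
Transcripts of the 3 Bcl2a1 genes, drawn along their length in bases. Grey marks the transcript, blue its coding part, black the exon boundary, green the starts of 100-base stretches found in no other gene (Gm29094 not counted), and yellow the 401 bases of Bcl2a1b that also belong to an exon of Gm29094; a long stretch in the coding part of each copy carries no green.

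The sequences before the copies are also alike, apart from a gap in that of Bcl2a1d, and are shown because all 3 were higher in the same libraries. They were taken from the RefSeq promoter windows (GRCm38.p6), in which all 10 genes had an entry, and end where the GENCODE gene begins. They cover chr9:88956670-88956899 for Bcl2a1a and chr9:89199023-89199208 for Bcl2a1b, on the forward strand, and chr9:88731915-88732100 for Bcl2a1d, on the reverse strand. Capitals mark GAGGAAGT, a purine-rich motif of the kind bound by ETS factors such as PU.1 of myeloid cells.
Bcl2a1a: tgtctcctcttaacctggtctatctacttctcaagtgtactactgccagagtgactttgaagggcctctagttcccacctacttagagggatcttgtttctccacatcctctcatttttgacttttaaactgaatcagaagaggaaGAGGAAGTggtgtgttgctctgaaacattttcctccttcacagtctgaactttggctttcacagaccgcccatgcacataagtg
Bcl2a1b: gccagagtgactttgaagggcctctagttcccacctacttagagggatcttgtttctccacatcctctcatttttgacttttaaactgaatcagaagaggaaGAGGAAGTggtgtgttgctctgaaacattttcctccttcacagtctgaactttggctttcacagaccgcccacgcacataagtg
Bcl2a1d: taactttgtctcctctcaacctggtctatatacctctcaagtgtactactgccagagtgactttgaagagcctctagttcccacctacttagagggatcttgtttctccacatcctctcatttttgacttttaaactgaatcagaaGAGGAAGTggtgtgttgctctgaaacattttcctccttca
Aligned bases were 99.5% identical between Bcl2a1a and Bcl2a1b (186 bases), 97.8% between Bcl2a1a and Bcl2a1d (180) and 99.3% between Bcl2a1b and Bcl2a1d (136). These shares leave out gaps. The bases gaggaa just before the marked motif of Bcl2a1a and Bcl2a1b are absent from Bcl2a1d. GAGGAAGT, searched on both strands, was in 3.11% of 32544 promoter windows of 300 bases. Among the 10 genes it was in the windows of Bcl2a1a, Bcl2a1b, Bcl2a1d and Bak1, of which Bak1 was under 1 FPKM in every library. The NF-kappaB consensus was in 4.53% of all windows and, among the 10 genes, in 1 of the 3 windows of Bcl2l1. A match is a description of these letters and not a site of binding.

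Of the 10 genes, 8 passed the filter of at least 1 FPKM in at least 3 libraries and were tested, and none of the 8 passed it through the positive libraries alone. In positive libraries 4 were higher (Bcl2a1a, Bcl2a1b, Bcl2a1d and Mcl1), beside 23.3% of all genes tested, and 1 was lower (Bid), beside 45.5%. The 3 Bcl2a1 copies share reads, so they are not independent of each other. The other 3 tested, Bcl2l1, Bcl2l11 and Bax, did not pass. The median log2 fold change of the 8 was 0.83, against −0.19 for all genes tested. With the 3 copies as 1 summed feature, the median of the 6 values was 0.02. Bcl2 and Bak1 were under the filter.

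**Figure D2:**
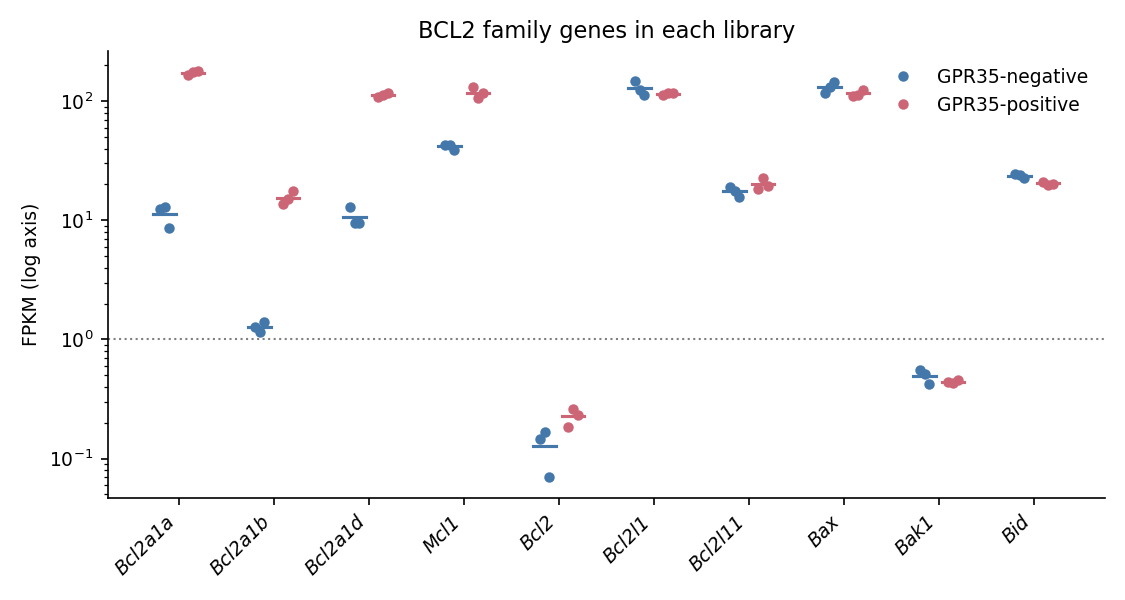
FPKM of the 10 genes in each library on a log axis; points are libraries, short lines are means of 3, and the dotted line is the filter of 1 FPKM. The positive libraries lie above the negative ones for the Bcl2a1 genes, Mcl1 and, below the filter line, Bcl2. The groups lie close together for Bcl2l1, Bcl2l11, Bax, Bak1 and Bid.

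The A1 genes had the largest differences of the family. Bcl2a1a was at 12.4, 12.8 and 8.69 FPKM in the negative libraries and at 166, 177 and 179 FPKM in the positive ones. The lowest positive library was far above the highest negative one, and 24.3% of all genes tested also had every positive library above every negative one. The group means ± SD (n = 3) were 11.3 ± 2.28 and 174 ± 7.16 FPKM, a 15.4-fold rise with a log2 fold change of 3.85 (SE 0.12, limma adjusted p = 1.75e-09). Of the 10060 genes tested, 19 had a larger log2 fold change. These values rest on 112 to 178 reads in negative and 2326 to 2686 reads in positive libraries.

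Bcl2a1d was at 12.8, 9.51 and 9.50 FPKM in the negative libraries and at 108, 113 and 117 FPKM in the positive ones. Again the groups did not overlap, and the positive libraries were close to each other. The mean rose 10.6-fold, with a log2 fold change of 3.31 (SE 0.11, limma adjusted p = 1.89e-09). Bcl2a1b, the copy under Gm29094, was about an order of magnitude lower than the other copies in both groups. Its level was 1.28, 1.16 and 1.40 FPKM in the negative and 13.7, 15.1 and 17.5 FPKM in the positive libraries, on 16 to 18 and 192 to 262 reads. It rose 12.1-fold, with a log2 fold change of 2.85 (SE 0.10, limma adjusted p = 3.61e-09). That change was 3.49 with a pseudocount of 0.1 and 3.56 with limma-voom on recovered reads, since adding 1 FPKM holds down the change of a gene this low.

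The copies were also summed and put in the table as 1 feature, which removes the question of how counted reads were split among them. It does not bring back reads shared among the copies if the counting left these out, in which case the sum is too low. The sum was 26.5, 23.5 and 19.6 FPKM in the negative libraries and 288, 305 and 314 FPKM in the positive ones. It rose 13.03-fold, with a log2 fold change of 3.66 (SE 0.10, limma adjusted p = 8.53e-10). Within the sum, Bcl2a1a made up 44.4% to 54.6% in negative and 57.0% to 58.1% in positive libraries. Bcl2a1d made up 40.5% to 48.5% and 37.0% to 37.7%. The level of Bcl2a1a over that of Bcl2a1d was thus 0.915 to 1.35 in the first group and 1.52 to 1.57 in the second, with no overlap. An exact two-sided permutation test of this ratio gave p = 0.1, the smallest that 3 against 3 libraries allow, and the same holds for the other 3 ratios tested below.

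Mcl1 (ENSMUSG00000038612, chr3:95658788-95663176) was also higher, by less. It was at 42.9, 43.2 and 39.1 FPKM in the negative libraries and at 131, 107 and 117 FPKM in the positive ones. The negative libraries lay within a narrow range, and every positive library was above them. The group means ± SD (n = 3) were 41.7 ± 2.25 and 118 ± 12.04 FPKM, a 2.83-fold rise with a log2 fold change of 1.48 (SE 0.08, limma adjusted p = 1.27e-07). Mcl1 rested on 2106 to 2527 reads in negative and 5957 to 7655 reads in positive libraries.

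Bcl2l1 (ENSMUSG00000007659, chr2:152780668-152831728), the BCL-XL gene, was abundant in both groups. Its level was 148, 123 and 114 FPKM in negative and 112, 116 and 117 FPKM in positive libraries. The groups overlapped, and the highest value was that of negative replicate 1. The log2 fold change of −0.15 had a 95% interval from −0.35 to 0.06 and did not pass (limma adjusted p = 0.181). Without negative replicate 3 it was −0.23 and passed (limma adjusted p = 0.0332). Bcl2 itself was nearly absent. Negative libraries held 23, 26 and 10 of its reads and positive libraries 29, 39 and 39, or 0.0694 to 0.168 and 0.185 to 0.261 FPKM. Every positive library was above every negative one, beside 24.3% of all genes tested, and the mean was 1.77-fold higher. Exact 95% Poisson intervals of the single libraries cover counting error alone. They reached from 4.80 to 38.1 reads in the negative group and from 19.4 to 53.3 in the positive group. These intervals overlapped, which does not test the difference between the group means. Without a filter the log2 fold change of Bcl2 was 0.12 (SE 0.04, 95% interval 0.02 to 0.22) and did not pass (limma adjusted p = 0.0571). Adding 1 FPKM before the log2 holds this value far below the 1.77-fold ratio of the means.

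**Figure D3:**
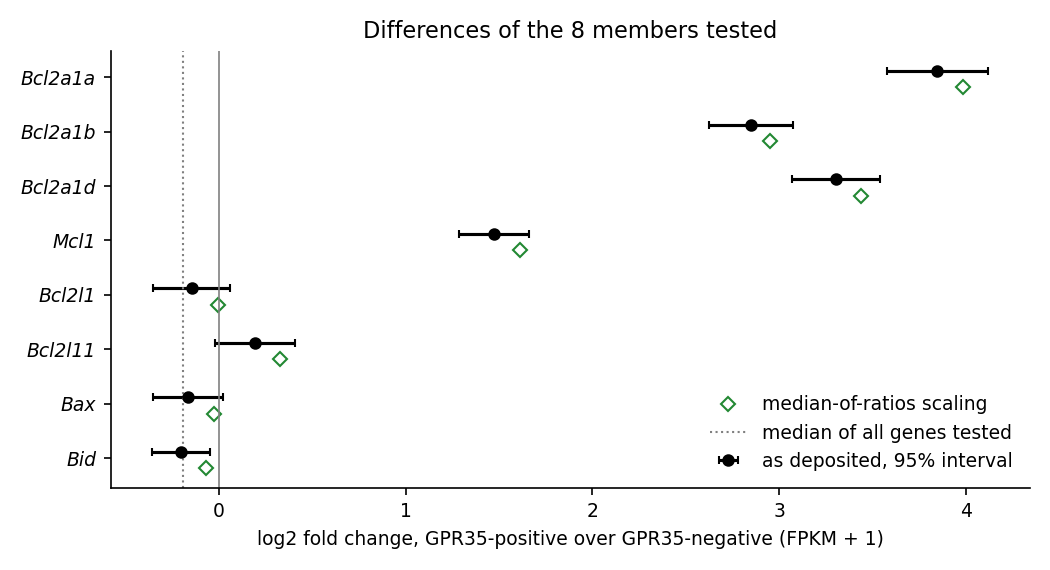
Log2 fold changes of the 8 genes tested, on the log2(FPKM + 1) scale; black points are values as deposited with 95% intervals, green diamonds the values with median-of-ratios scaling, and the dotted line the median of all genes tested, −0.19. The Bcl2a1 genes and Mcl1 lie well to the right of 0, and Bcl2l1, Bax and Bid lie near the median line as deposited and nearer to 0 with the other scaling.

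Side by side, the pro-survival transcripts differed in make-up between the groups. Bcl2l1 supplied 64.9% to 68.1% of the summed FPKM of Bcl2a1a, Bcl2a1b, Bcl2a1d, Mcl1, Bcl2 and Bcl2l1 in negative libraries and 21.1% to 22.0% in positive ones. The Bcl2a1 genes supplied 11.3% to 12.3% in the first group and 54.2% to 57.7% in the second. The share of Mcl1 was 19.7% to 22.7% and 20.2% to 24.6%, with overlapping groups, although its level differed 2.83-fold. The sum itself was 193 ± 22.8 FPKM in negative and 536 ± 11.0 FPKM in positive libraries (± SD, 3 libraries a group). Mcl1 stood at 0.289 to 0.350 times the level of Bcl2l1 in negative libraries and at 0.918 to 1.16 times in positive ones (exact permutation p = 0.1). The Bcl2a1 sum stood at 0.500 to 0.618 and 2.20 to 2.86 times the level of Mcl1 (exact permutation p = 0.1). The order of levels was thus Bcl2l1, Mcl1, Bcl2a1 sum in each negative library. In each positive library the Bcl2a1 sum came first, and Mcl1 and Bcl2l1 lay within the spread of each other. If reads shared among the Bcl2a1 copies were left out of the counting, the levels, shares and place of Bcl2a1 given here are too low.

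**Figure D4:**
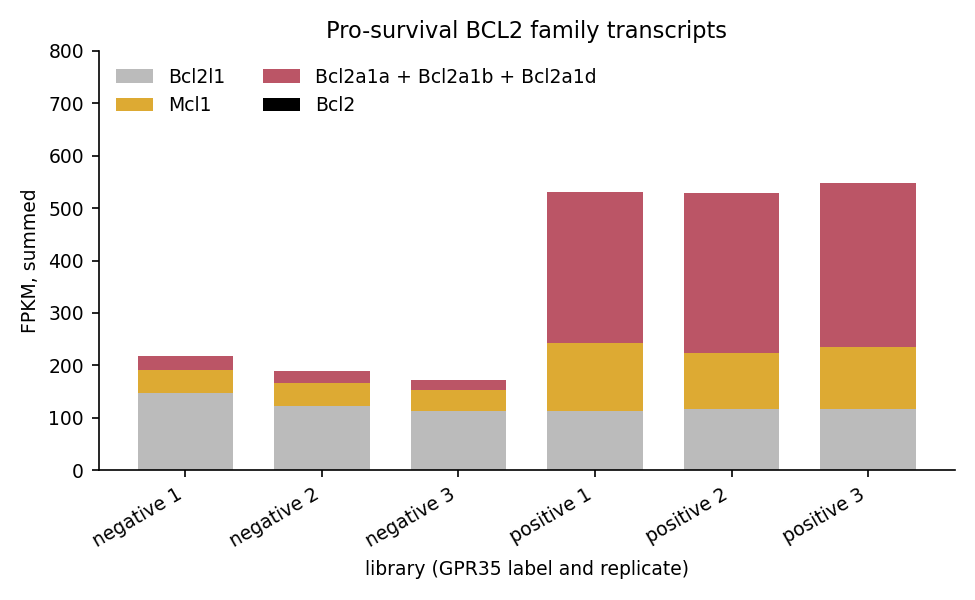
Summed FPKM of the pro-survival genes in each library, stacked from 0. The grey part, Bcl2l1, is of like height in the 6 bars, and the red part, the Bcl2a1 genes, makes up 54.2% to 57.7% of the bars labelled positive; Bcl2, in black, is too low to be seen.

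The effector genes showed no such difference. Bax (ENSMUSG00000003873, chr7:45461697-45466898) was at 117, 131 and 144 FPKM in negative and at 111, 114 and 124 FPKM in positive libraries. The groups overlapped, and the log2 fold change of −0.16 (95% interval −0.35 to 0.02) did not pass (limma adjusted p = 0.107). It passed without negative replicate 1 (−0.24, adjusted p = 0.0257). Bak1 (ENSMUSG00000057789, chr17:27019810-27029009), which encodes the other effector, was at 0.422 to 0.554 FPKM in negative and 0.433 to 0.454 FPKM in positive libraries, on 16 to 23 reads a library. Without a filter its log2 fold change was −0.05 (SE 0.05, limma adjusted p = 0.444), so no difference was detectable at this depth. Adding 1 FPKM makes this change smaller than the ratio of its means, 0.887, and its groups overlapped. An overlapping gene on the other strand, Ggnbp1, shares 437 of the 2407 exon bases of Bak1 and was under 1 FPKM too. Of the summed RNA of Bax and Bak1, Bax therefore made up nearly all. The BAX-like gene Bok, given below, is not in this sum. Bax has an overlap too: Gm45808, on the same strand, shares 192 of its 1576 exon bases and was at 0 in all 6 libraries. The pro-survival sum was 1.197 to 1.85 times the sum of Bax and Bak1 in negative and 4.39 to 4.77 times in positive libraries.

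The BH3-only genes differed little in size. Bcl2l11 (ENSMUSG00000027381, chr2:128126038-128162547) was at 19.0, 17.7 and 15.7 FPKM in negative and 18.4, 22.5 and 19.4 FPKM in positive libraries. The groups overlapped, and the log2 fold change of 0.19 (95% interval −0.02 to 0.41) did not pass (limma adjusted p = 0.0994). With median-of-ratios scaling it was 0.33 and passed (adjusted p = 0.0111). Bid (ENSMUSG00000004446, chr6:120891930-120916853) was at 24.4, 23.99 and 22.6 FPKM in negative and 21.01, 19.9 and 20.4 FPKM in positive libraries. Every positive library was below every negative one, as in 48.2% of all genes tested. Bid fell by 0.20 on the log2 scale (SE 0.07, limma adjusted p = 0.0240), which differs from the median of all genes tested by −0.01. The call ended under median-of-ratios scaling (−0.07, adjusted p = 0.438). It also ended without negative replicate 1 (adjusted p = 0.0540), negative replicate 2 (0.0816), positive replicate 2 (0.0711) or positive replicate 3 (0.0837). Bid also shares 628 of its 3550 exon bases with Bcl2l13 on the other strand, and the sources used here do not say whether the counting used strand. The level of Bcl2l11 over that of Bid was 0.694 to 0.779 in negative and 0.877 to 1.13 in positive libraries (exact permutation p = 0.1).

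Markers of several cell types moved with the A1 genes and Mcl1, and their part in these differences was not tested. All 10 pan-leukocyte markers rose, with ratios of mean FPKM from 4.27 to 13.7 and a summed level of 174 to 239 FPKM in negative and 2088 to 2143 FPKM in positive libraries. All 20 mature neutrophil markers rose, with ratios from 4.02 to 16.6, and 2 of them passed the filter through the positive libraries alone. All 12 macrophage and monocyte markers tested, of 18 in the table, rose, 6 of them tested through the positive libraries alone, with a summed level over the 18 of 38.3 to 52.8 and 954 to 985 FPKM. Marco and Timd4 were at 0 in the 3 negative libraries. The 3 dendritic cell markers tested and the 4 of eosinophils, basophils and mast cells were also higher, at summed levels of 23.2 to 40.5 FPKM in positive libraries, but 2 of those 3 and 1 of those 4 were tested through the positive libraries alone. For lymphocytes, 3 of the 8 T and NK markers tested fell, beside 45.5% of all genes tested, and with median-of-ratios scaling 1 did. The 5 endothelial and fibroblast markers tested rose, at sums of 13.9 to 18.5 and 21.6 to 27.5 FPKM, and 3 of them passed without negative replicate 2, negative replicate 3, positive replicate 1 or positive replicate 3. Of 19 hepatocyte and hepatoma markers tested, 16 fell and 1 rose, beside 45.5% and 23.3% of all genes tested. The ratios of the Bcl2a1 genes, 10.6 to 15.4, lay in the range of the neutrophil markers. They also lay in that of the macrophage and monocyte markers tested, 2.57 to 35.6. Those of Bcl2a1b and Bcl2a1d lay in the pan-leukocyte range as well. That of Mcl1, 2.83, lay between the pan-leukocyte and hepatocyte lists and within the macrophage and monocyte range. Those of Bcl2l1, Bax and Bid, 0.898, 0.889 and 0.863, were above the hepatocyte list's median of 0.670 and within its range, 0.454 to 1.65.

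For each 100 FPKM of summed pan-leukocyte markers, the libraries held 11.1, 11.4 and 11.2 FPKM of Bcl2a1 in the negative group and 13.8, 14.4 and 14.7 FPKM in the positive group. Relative to this gauge the A1 genes were thus 1.27-fold higher, against 13.03-fold without it. Per 100 FPKM of summed neutrophil markers the values were 2.11 to 2.23 and 2.66 to 2.99, 1.30-fold higher. Mcl1 went the other way on the leukocyte gauge, from 17.9 to 22.5 FPKM in negative to 5.03 to 6.26 FPKM in positive libraries for each 100 FPKM of markers. Per 1000 FPKM of summed hepatocyte and hepatoma markers it was 4.29-fold higher, at 1.47 to 1.68 and 6.20 to 7.43 FPKM. On the same hepatocyte gauge Bax was at 4.32 to 5.39 and 6.30 to 7.05 FPKM, Bcl2l1 at 4.26 to 5.45 and 6.38 to 6.75 FPKM, and Bid at 0.847 to 0.932 and 1.15 to 1.19 FPKM. These ratios rest on the genes chosen for each gauge and are descriptions. The summed macrophage and monocyte markers were not used as a gauge. They rose 21.1-fold, more than the 13.03-fold of the Bcl2a1 sum, so relative to them Bcl2a1 was lower in positive libraries.

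**Figure D5:**
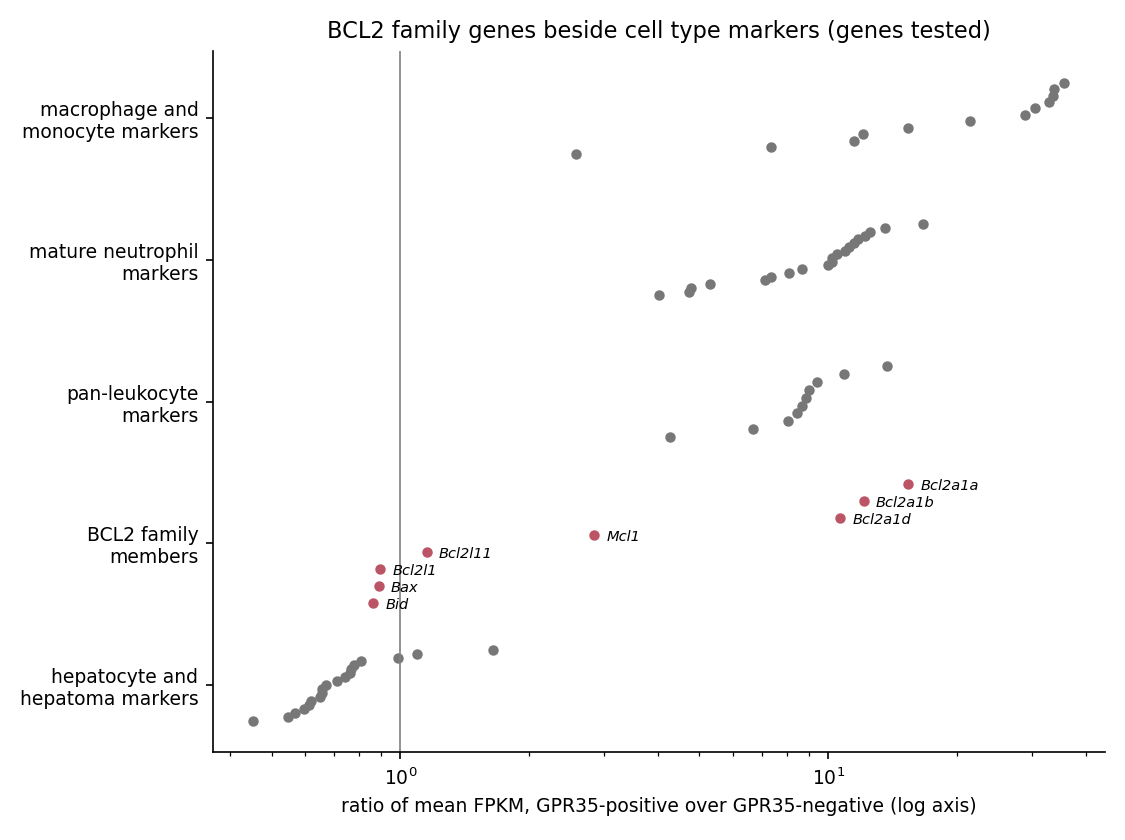
Ratio of mean FPKM between the groups, on a log axis, for the BCL2 family genes tested (red, named) and for the tested markers of 4 cell type lists (grey); each point is a gene. The Bcl2a1 genes lie in the range of the neutrophil markers and in that of the macrophage and monocyte markers. Mcl1 at 2.83 lies below the neutrophil and pan-leukocyte markers and within the macrophage and monocyte range. Bcl2l1, Bax, Bid and Bcl2l11 lie around 1, most hepatocyte markers being lower.

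Other genes of the family moved little. Of 17 other BCL2 family genes, 9 were tested. Of these, 2 rose and 3 fell, beside 23.3% and 45.5% of all genes tested, and 4 did not pass. Their median was −0.12 on the log2 scale, beside −0.19 over the whole table. Both that rose encode BH3-only proteins induced by p53: Pmaip1 (NOXA, which binds MCL1 and A1) rose from 146 ± 17.9 to 191 ± 5.39 FPKM, and Bbc3 (PUMA) from 7.35 ± 0.321 to 9.45 ± 1.05 FPKM (± SD, 3 libraries a group). The mitophagy receptor genes Bnip3 and Bcl2l13 fell by 0.31 and 0.39 in log2 units. The BAX-like gene Bok fell by 0.34 with overlapping groups (limma adjusted p = 0.0384), and this call ended with median-of-ratios scaling, without a filter, and without each of negative replicates 1 and 2 and positive replicates 1 and 3 (adjusted p = 0.0728 to 0.139). With median-of-ratios scaling the list had 3 higher and 1 lower. With median-of-ratios scaling the Bnip3 call ended (adjusted p = 0.0915). Bcl2l2, which encodes the pro-survival protein BCL-W, was under the filter at a mean of 0.703 and 0.461 FPKM.

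Of 14 apoptosome and caspase genes tested, 0 rose and 6 fell, beside 23.3% and 45.5% of all genes tested, with a median of −0.12, and limma-trend gave 0 rises at an unadjusted p under 0.05 and limma-voom 0 at an adjusted one. With median-of-ratios scaling 1 rose and 5 fell. Parp1, whose product is a caspase substrate, fell from 23.8 ± 0.594 to 16.2 ± 0.215 FPKM (± SD, 3 libraries a group). Casp2 and the mitochondrial protease gene Htra2 fell by 0.55 and 0.45. Of 6 inhibitor of apoptosis (IAP) genes tested, 3 rose and 2 fell, beside the same 23.3% and 45.5%. The NF-kappaB-induced gene Birc3 (cIAP2) rose from 5.32 ± 0.624 to 39.1 ± 0.538 FPKM, and Naip2 and Birc2 rose by 1.12 and 0.45, of which Naip2 passed the filter through the positive libraries alone. Xiap, the direct caspase inhibitor, fell by 0.32, a call that ended with median-of-ratios scaling (adjusted p = 0.0588), under which 0 IAP genes fell.

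Of 10 death receptor and adaptor genes tested, 7 rose and 2 fell, beside 23.3% and 45.5% of all genes tested, with a median of 0.61. The receptor genes Tnfrsf1b and Fas rose 9.28-fold and 5.19-fold, and the necroptosis kinase gene Ripk3 8.66-fold. Cflar, which encodes the caspase-8 inhibitor FLIP, rose from 7.61 ± 1.202 to 18.8 ± 0.783 FPKM (± SD, 3 libraries a group). Of 11 p53 pathway genes tested, 3 rose and 6 fell, with a median of −0.35, and these shares are near the 23.3% and 45.5% of all genes tested. Mdm2 and Sesn2 rose by 0.53 and 1.07 and Perp and Phlda3 fell by 0.64 and 0.59. Of 7 genes that bear on MCL1 turnover or transcription, 1 rose and 1 fell, beside 23.3% and 45.5% of all genes tested. Cdk9, a kinase needed for transcription of short-lived messages such as Mcl1, rose by 0.34, and Huwe1, an MCL1 ubiquitin ligase gene, fell by 0.28. Without negative replicate 1, negative replicate 2 or positive replicate 3, neither passed. Huwe1 did not pass without positive replicate 1, without a filter (adjusted p = 0.0609) or with median-of-ratios scaling (0.0983) either. The deubiquitinase gene Usp9x was at 11.3 ± 1.97 and 9.21 ± 0.381 FPKM and Fbxw7 at 1.502 ± 0.313 and 1.59 ± 0.211 FPKM (± SD, 3 libraries a group), and neither passed. Usp9x passed without negative replicate 1 (−0.38, adjusted p = 0.00659), by limma-voom (adjusted p = 0.0435) and with scaling that leaves out mitochondrial genes and the 50 most abundant (0.0426).

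Of 9 receptor genes tested for cytokines that keep myeloid cells alive, 7 rose and 1 fell, beside 23.3% and 45.5% of all genes tested. The list had a median of 2.07 and a summed FPKM 1.71 times as high. The gene that fell, Ifngr1, changed by −0.21 on the log2 scale, near the median of −0.19 over all genes tested. Its call ended under median-of-ratios scaling (−0.07, adjusted p = 0.398) and also without negative replicate 2 (0.0599) or positive replicate 3 (0.0642). Of the 9, 2 passed the filter through the positive libraries alone. The GM-CSF receptor genes Csf2ra and Csf2rb rose 10.1-fold and 11.4-fold, the G-CSF receptor gene Csf3r 9.99-fold and the M-CSF receptor gene Csf1r 12.1-fold. Csf3r is also 1 of the neutrophil markers and Csf1r 1 of the macrophage markers counted above.

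The genes with the nearest profiles, chiefly a match in the size of the group difference, were sought by the distance between centred log2(FPKM + 1) values over the 6 libraries. The 5 nearest to the Bcl2a1 sum, among 10057 genes, were Acod1, Clec4e, Plek, Plbd1 and Igsf6, at distances of 0.0992 to 0.204 against a median of 4.73. Acod1, the gene of the itaconate-making enzyme, was at 64.3 ± 10.3 and 794 ± 59.8 FPKM, and Plek, which encodes pleckstrin, at 15.9 ± 2.91 and 210 ± 9.63 FPKM (± SD, 3 libraries a group). The 5 nearest to Mcl1 were 9830107B12Rik, Ptpn12, Ric1, Sat1 and Tnni2, at 0.116 to 0.145 against a median of 2.08. Sat1, a polyamine acetyltransferase gene, was at 283 ± 22.5 and 770 ± 60.4 FPKM (± SD, 3 libraries a group), 2.72-fold higher, and Ptpn12 and Ric1 were 3.31-fold and 3.30-fold higher. Tnni2 and 9830107B12Rik passed the filter through the positive libraries alone. Their mean FPKM were 12.4-fold and 8.33-fold higher, against 2.83-fold for Mcl1, so their nearness rests on the 1 FPKM added before the log2.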

How the data were processed

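Values are FPKM, as the authors deposited them in 1 table, per the file headers. Per the submitters' processing notes, the tools were HTSeq 0.9.1, HISAT2 2.1.0, fastp 0.22.0 and DESeq 1.38.3, listed with no roles, and the build was the human GRCh38, while the IDs are mouse. Libraries were made from Trizol-extracted total RNA, per the labels' protocols. GENCODE M21 (GRCm38) gave symbols, positions and exon lengths for 21851 of 21959 IDs. With those lengths, 97.7% of non-zero FPKM matched a whole number of reads to within 0.02 reads. FPKM of at least 1 in at least 3 libraries were tested by limma-trend (limma 3.58.1, R 4.3.3), two-sided, on log2(FPKM + 1), the model holding group alone, with p-values adjusted by Benjamini-Hochberg over 10060 genes and a threshold of 0.05. Where leaving out a library lost genes, the same filter was applied to the rest. Adjusted p-values are limma's.

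All 10 members are named, and from each other list up to 4 genes tested, by smallest p. Of these, 1 gene chosen by this rule is not reported here. Bok, Bcl2l2 and Ifngr1 were named after their values were seen. Members and lists were chosen with earlier results of these data known. No pair of replicates was a duplicate: their recovered reads gave chi-square values averaging 5.15 to 20.6 for 11114 genes. The test was tried on simulated data in which far fewer genes differed than were called here, and no outcome of that trial is given. Python 3.11.15, numpy 2.4.6, pandas 2.3.3, biopython 1.88 and matplotlib 3.10.9 were used.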

Additional observations from a re-analysis of the deposited data

How the results depend on the processing

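The 3 Bcl2a1 genes, their sum and Mcl1 kept their direction and passed in all 13 alternatives; the Bcl2a1 sum ranged from 3.55 to 3.75 on the log2 scale when each library was left out and was 3.796 with median-of-ratios scaling. The number of members lower was 1 as deposited and 1 by limma-voom on recovered reads. With median-of-ratios scaling it was 0, also at an unadjusted limma-trend p under 0.05. It was 2 with a replicate block, in which Bax passed (adjusted p = 0.0452), and 0 to 2 when each library was left out. Genes lower over the whole table numbered 4575 as deposited and 3033 with median-of-ratios scaling. The replicate numbers were not taken as pairs: deviations of same-numbered libraries correlated at −0.00177, 0.400 and −0.0642, and the block moved the calls over all genes from 2342 and 4575 to 2365 and 4633. Naip2 and Csf1r could not be tested when a positive library was left out, since fewer than 3 libraries then reached 1 FPKM. Depth limits Bcl2 and Bak1, at 10 to 39 reads, and Bcl2a1b in negative libraries, at 16 to 18 reads.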
